A study of Homo sapiens with 42 samples.

Results

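Several entries of human miRNA catalogues have sequences that lie inside, or nearly repeat, other small RNAs. The 8 entries described here were taken by name from a deposited table of 2657 miRNA entries: miR-1246 (U2 small nuclear RNA), miR-1248 (a small nucleolar RNA), miR-1260a, miR-1260b and miR-4454 (transfer RNAs), miR-4485-3p and miR-12136 (mitochondrial RNAs) and miR-886 (vault RNA). Small RNAs were sequenced from nuclear and cytoplasmic fractions of 3 untreated wild-type human cell lines, A375 (melanoma), SHSY5Y (neuroblastoma) and HEK293 (embryonic kidney), each grown to confluency and to subconfluency. In HEK293, small RNAs bound to Argonaute proteins were also sequenced, after immunoprecipitation (IP) of AGO1 to AGO4 with the T6B peptide, from confluent and from subconfluent cells. Each of the 14 groups had 3 libraries. The replicate 3 libraries of confluent nuclei of HEK293 and SHSY5Y held 39 and 31 counts and were left out, which left 40 libraries.

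Depth was 9817 to 53775 counts in the 34 fraction libraries that were used and 910753 to 1124959 counts in the 6 IP libraries. The 8 entries took 0.426% to 4.26% of the counts of a fraction library and 0.0329% to 0.0560% of those of an IP library. Of the miRNAs looked at as tissue markers, some set the lines apart and others did not. The neuronal miR-9-5p had a median of 2695 CPM (counts scaled to 1000000 per library) in SHSY5Y, against 460.0 in A375 and 503 in HEK293. miR-221-3p had a median of 46806 CPM in A375, against 2354 in HEK293 and 4957 in SHSY5Y. The neural miR-7-5p differed little, with medians of 4984 CPM in SHSY5Y, 3771 in A375 and 4212 in HEK293. The melanocyte miRNA miR-204-5p had a lower median in A375 than in HEK293 (232 CPM). miR-211-5p, also a melanocyte miRNA, was near 0 in all lines, including A375 (2 counts). Group names follow the deposited columns, and the fraction heading above each column gave the same fraction in 36 of 36 columns. In a table of group means supplied with the study, the names of subconfluent cytoplasm and confluent nucleus stand the other way round in each line, and the main changes under that exchange are given with the results. The same 3′ adapter served a given group and replicate in each line, so adapter and group cannot be told apart. In these bulk fractions, fewer cells and less RNA per cell cannot be told apart either.

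A microRNA is cut from a hairpin by Drosha and Dicer and loaded into an Argonaute protein, which it guides to targets through its seed, bases 2 to 8. U2 small nuclear RNA is a core part of the spliceosome, and box H/ACA small nucleolar RNAs guide pseudouridylation in the nucleus. Transfer RNAs are exported to the cytoplasm with a CCA added at their 3′ end, and mitochondrial RNAs are transcribed inside mitochondria. Vault RNAs are short RNA polymerase III transcripts, some of which are parts of the cytoplasmic vault particle. Fragments of all these RNAs are of miRNA size and enter small RNA libraries.

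The mature sequences show why a read of these entries has more than 1 possible source. They are given from RefSeq (GRCh38.p14), 5′ to 3′, with the seed in capitals, and positions are counted from 1 at the 5′ end.
miR-1246: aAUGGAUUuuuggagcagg
miR-1248: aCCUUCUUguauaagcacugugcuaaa
miR-1260a: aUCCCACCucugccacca
miR-1260b: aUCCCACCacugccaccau
miR-4454: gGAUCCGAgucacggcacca
miR-4485-3p: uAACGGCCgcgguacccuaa
miR-12136: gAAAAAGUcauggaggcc
Among them only miR-1260a and miR-1260b share a seed, and they differ within their common length by U9A. No sequence was at hand for miR-886. It is the older name of VTRNA2-1, a vault RNA gene at chr5:136080470-136080597 on the minus strand of hg38.

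In the genome (GRCh38.p14), miR-1246 lies at chr2:176601024-176601042, antisense to the long non-coding RNA LINC01117. All its 19 bases match bases 94 to 112 of U2 small nuclear RNA (RNU2-1, 191 bases). At least 19 annotated small nuclear RNA genes hold that match, some with pseudogene names such as RNU2-33P. miR-1248 lies at chr3:186786675-186786701 and is the first 27 bases of SNORA81 (178 bases), a box H/ACA RNA hosted by EIF4A2, the gene of a translation initiation factor. miR-4485-3p (chr11:10508277-10508296, minus strand) matches bases 893 to 912 of the mitochondrial 16S ribosomal RNA MT-RNR2 (1559 bases). miR-12136 (chr1:632668-632685, minus strand) matches bases 1 to 18 of the mitochondrial serine tRNA MT-TS1 (69 bases), and its annotated locus lies in nuclear pseudogenes of mitochondrial DNA. Reads were mapped to miRNA sequences alone, so a read from the annotated hairpin and a read from the matching RNA cannot be told apart in the counts of these 4 entries.

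The 3 transfer RNA entries match the 3′ ends of tRNAs only once the CCA is added. The stretches below show this, with the base that differs from the miRNA entry in capitals.
tRNA-Leu TRL-AAG1-1: aucccaccGcugccacca
tRNA-Leu TRL-TAG2-1: aucccaccacugccacca
tRNA-His TRH-GTG1-1: gAauccgagucacggcacca
miR-1260a (chr14:77266231-77266248, antisense to NGB, the neuroglobin gene) differs at 1 base from 12 leucine tRNA genes, by U9A from TRL-TAG2-1 and by U9G from the others. miR-1260b (chr11:96341447-96341465, antisense to MAML2, a Notch coactivator gene) matches TRL-TAG2-1 over 18 bases and runs 1 base past the tRNA end, and it differs from the other 11 by A9G. miR-4454 (chr4:163093607-163093626, minus strand) differs from 9 histidine tRNA genes by G2A, which lies in its seed.

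An entry was tested in a line where at least 3 libraries held at least 10 counts of it. In HEK293, of 7 entries tested, 1 was higher and 4 were lower in nuclei than in cytoplasm by edgeR's quasi-likelihood test at an adjusted p under 0.05. Among all 345 entries tested there, 53.9% passed, with 18.8% higher and 35.1% lower. In A375, 1 was higher and 4 were lower of 7, where 21.5% of 265 entries passed, 7.55% higher and 14.0% lower. In SHSY5Y, 2 were higher and 3 were lower of 7, where 71.3% of 348 entries passed, 33.9% higher and 37.4% lower. 3 of these member calls were those of miR-4485-3p in HEK293, miR-886 in A375 and miR-1248 in SHSY5Y. These entries reached the minimum of 10 counts in libraries of the higher fraction only, so nothing is read from their calls. Exact tests of them are given below as a description, since that same one-sided passage chose the entries for these tests. The split of all calls moved with the scaling. In HEK293 it was 65 higher and 121 lower with TMM scaling, 37 and 132 with library totals and 19 and 148 with TMM factors from entries detected in the IP. In SHSY5Y it was 118 and 130, 99 and 142, and 38 and 168 under the same scalings. In A375 it was 20 and 37, 19 and 49, and 19 and 30. The log2 differences of both leucine tRNA entries were below 0 in each line under each scaling tried. The labels do not say that fraction libraries of a group came from separate cultures, so the p-values measure the spread between these libraries.

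**Figure D1:**
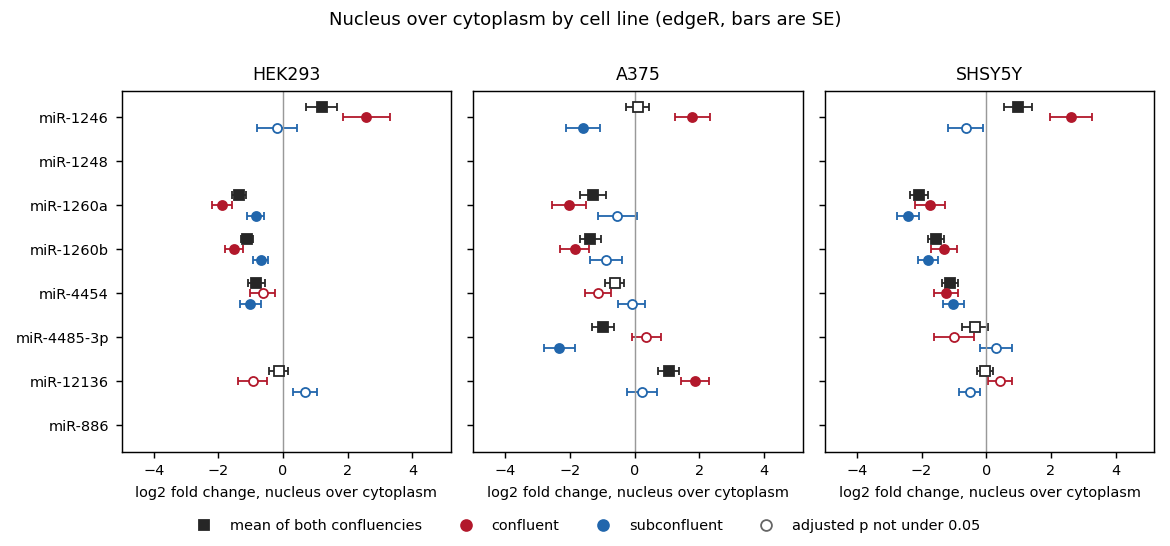
Log2 fold change of nucleus over cytoplasm (x axis) for each entry and line, with standard errors from edgeR. Squares are the mean of both confluencies, red circles confluent and blue circles subconfluent cells, and open symbols did not reach an adjusted p under 0.05. Entries below the count filter, or at its minimum in libraries of 1 fraction only over both confluencies, are not drawn. Circles are drawn also where only 1 fraction reached the minimum at that confluency, as for miR-1260a in subconfluent A375. miR-1260a and miR-1260b lie left of 0 in every line, with miR-1260b at -1.11 in HEK293, -1.37 in A375 and -1.55 in SHSY5Y.

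miR-1246, the U2 entry, was several times higher in nuclei than in cytoplasm of confluent cells in each line. In confluent A375 it had 3014, 2296 and 1726 CPM in nuclei, against 806, 768 and 450.2 CPM in cytoplasm. In confluent SHSY5Y it had 3666 and 2308 CPM in nuclei, against 355, 632 and 484 CPM in cytoplasm. In confluent HEK293 it had 1718 and 1419 CPM in nuclei, against 257, 169.9 and 387 CPM in cytoplasm. Nuclear and cytoplasmic libraries of confluent cells did not overlap in any line. The log2 difference was 1.78 in A375 (SE 0.540, edgeR adjusted p = 0.0267), 2.62 in SHSY5Y (SE 0.655, edgeR adjusted p = 0.00127) and 2.58 in HEK293 (SE 0.726, edgeR adjusted p = 0.0137). At confluency 12.5%, 54.9% and 22.3% of all entries tested passed in these lines. The SHSY5Y call held when any 1 library was left out. With TMM factors from entries detected in the IP it was 1.94 (edgeR adjusted p = 0.0630). The A375 call was lost without any 1 of the 3 confluent cytoplasmic libraries or the first confluent nuclear one (1.55 to 1.97), and the HEK293 call without the second confluent cytoplasmic or either confluent nuclear library (2.25 to 2.70).

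Subconfluent cells gave another picture of miR-1246. In subconfluent A375 it had 2713, 2424 and 1595 CPM in nuclei, against 15199, 2666 and 2522 CPM in cytoplasm. In subconfluent SHSY5Y it had 1275, 1272 and 978 CPM in nuclei, against 5288, 387 and 258 CPM in cytoplasm. In subconfluent HEK293 it had 1792, 451 and 596 CPM in nuclei, against 2399, 381 and 381 CPM in cytoplasm. In each line the first subconfluent cytoplasmic library was the highest and stood apart from the other cytoplasmic ones, and these 3 libraries were made with the same adapter. The log2 difference of nucleus over cytoplasm was -1.60 in A375 (edgeR adjusted p = 0.0282), -0.64 in SHSY5Y (edgeR adjusted p = 0.299) and -0.19 in HEK293 (edgeR adjusted p = 0.793), where 20.0%, 60.9% and 54.2% of all entries passed. Without these 3 libraries it was -0.26 in A375 (edgeR adjusted p = 0.746), 1.86 in SHSY5Y (edgeR adjusted p = 5.35e-05) and 1.13 in HEK293 (edgeR adjusted p = 0.0967). The choice of these libraries followed their miR-1246 levels, so miR-1246 values and p-values without them, here and below, are a description. The A375 call was lost in 7 of the 12 fits that left out 1 library, with DESeq2 (-1.51, DESeq2 adjusted p = 0.0691) and with TMM factors from entries detected in the IP (-1.69, edgeR adjusted p = 0.0559).

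The cytoplasmic level of miR-1246 was lower in confluent than in subconfluent cells, by a log2 difference of -3.28 in A375 (SE 0.548, edgeR adjusted p = 2.48e-05), -1.88 in SHSY5Y (SE 0.606, edgeR adjusted p = 0.00821) and -1.91 in HEK293 (SE 0.636, edgeR adjusted p = 0.0271). In the same contrast 28.3%, 58.9% and 28.4% of all entries passed. Without the first subconfluent cytoplasmic libraries the difference was -1.96 in A375 (edgeR adjusted p = 0.00132), 0.62 in SHSY5Y (edgeR adjusted p = 0.215) and -0.66 in HEK293 (edgeR adjusted p = 0.495), so that the call held in A375 alone. Leaving out any other single library kept the A375 call, while the HEK293 call was lost in 6 of 11 such fits and the SHSY5Y call also without the first confluent cytoplasmic library (-1.65) and with TMM factors from entries detected in the IP (-1.31, edgeR adjusted p = 0.163).

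Over both confluencies, the log2 difference of miR-1246, nucleus over cytoplasm, was 0.09 in A375 (edgeR adjusted p = 0.881), 0.99 in SHSY5Y (edgeR adjusted p = 0.0378) and 1.19 in HEK293 (edgeR adjusted p = 0.042), and without the first subconfluent cytoplasmic libraries it was 0.76, 2.24 and 1.94. With the exchanged group names it would be 1.59 in A375 (edgeR adjusted p = 0.00136), 0.25 in SHSY5Y (edgeR adjusted p = 0.631) and 0.53 in HEK293 (edgeR adjusted p = 0.500). The SHSY5Y call was lost in 9 of the 11 fits that left out 1 library (0.51 to 2.24) and the HEK293 call in 7 of 11 (0.85 to 1.94). With library totals neither was called, at 0.76 in SHSY5Y (edgeR adjusted p = 0.178) and 0.99 in HEK293 (edgeR adjusted p = 0.0945). The test of whether the nuclear excess differed between confluent and subconfluent cells gave 3.37 in A375 (SE 0.751, edgeR adjusted p = 0.00213), 3.26 in SHSY5Y (SE 0.855, edgeR adjusted p = 0.0351) and 2.76 in HEK293 (SE 0.955, edgeR adjusted p = 0.0983), where 14.7%, 1.44% and 4.06% of all entries passed. In HEK293 no member passed that test by edgeR, 4 had an unadjusted p under 0.05, and DESeq2 called 1. Without the first subconfluent cytoplasmic libraries these values were 2.04 (edgeR adjusted p = 0.0246), 0.76 (edgeR adjusted p = 0.707) and 1.61 (edgeR adjusted p = 0.265), and in SHSY5Y the call was lost in 9 of the 11 fits that left out 1 library and with TMM factors from entries detected in the IP (edgeR adjusted p = 0.358).

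miR-1290 is an entry outside the list whose profile was most like that of miR-1246, with a Pearson r of 0.88 of log2 CPM over the 34 fraction libraries, which share lines, adapters and depth. It is shown because its first 12 bases repeat a run inside miR-1246, given here in capitals.
miR-1290: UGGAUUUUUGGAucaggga
This run is bases 1 to 12 of miR-1290 and bases 3 to 14 of miR-1246, and miR-1290 differs from U2 small nuclear RNA at 1 base, U13G. miR-1290 had 5450 CPM in the first subconfluent cytoplasmic library of A375, against 587 and 590.2 CPM in the others. In SHSY5Y these values were 1217 CPM, against 232 and 277 CPM, and in HEK293 they were 738 CPM, against 76.2 and 60.2 CPM. The library that was highest in miR-1246 was thus also the highest of its group in miR-1290 in each line. Whether reads of the shared run were split between both entries was not tested.

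**Figure D2:**
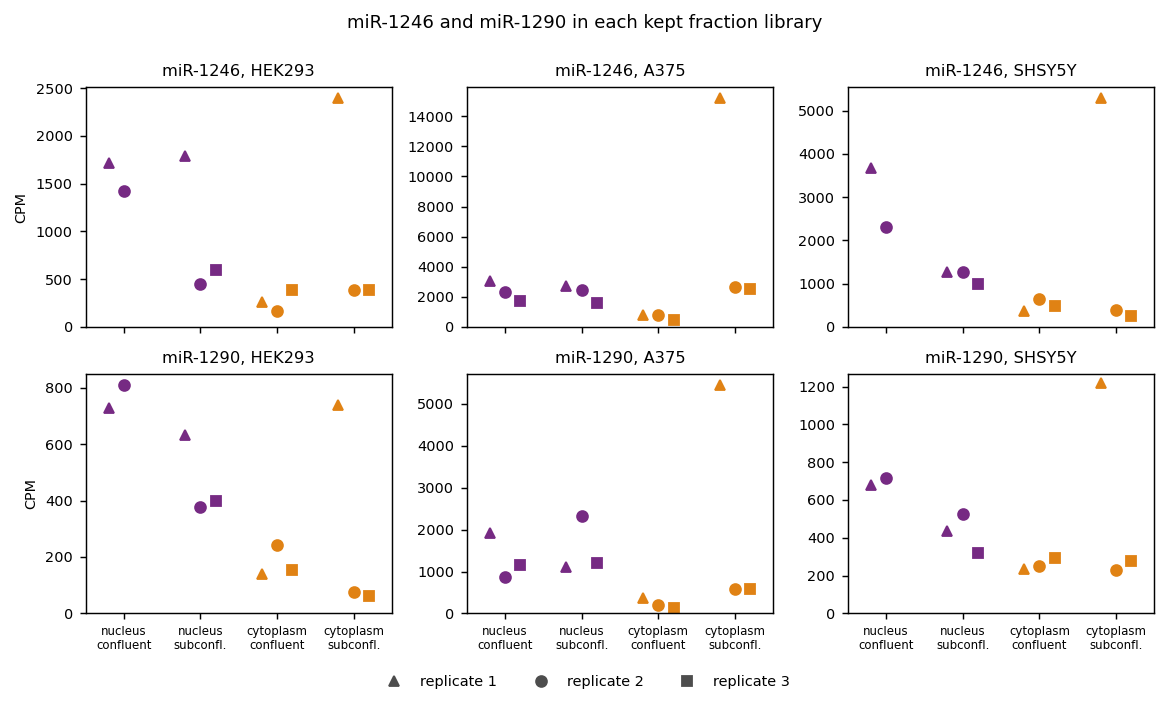
CPM of miR-1246 and miR-1290 in each fraction library, with groups along the x axis, a linear y axis and a symbol for each replicate number. The first subconfluent cytoplasmic library lies above the others of its group in each line for both entries, for example at 15199 and 5450 CPM in A375.

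miR-1248, the snoRNA entry, was highest in nuclei of SHSY5Y. There it had 838 and 716 CPM in confluent and 916, 1646 and 909 CPM in subconfluent nuclei, against 88.7, 63.2 and 0 CPM in confluent and 42.0, 103 and 111 CPM in subconfluent cytoplasm. The fractions did not overlap, with means of 1005 ± 367 CPM in nuclei (SD, n = 5) and 68.0 ± 42.0 CPM in cytoplasm (SD, n = 6, two-sided exact permutation p = 0.00216, the smallest that these numbers allow). The entry reached 10 counts in 4 nuclear and in 0 cytoplasmic SHSY5Y libraries, so its passage of the count filter rested on nuclei and no fitted value is given. These fractions would overlap with the exchanged group names. In A375, nuclei had 637, 496 and 647 CPM at confluency and 201, 485 and 275 CPM at subconfluency, against 57.6, 28.4 and 135 CPM and 230.3, 361 and 215 CPM in cytoplasm. The A375 fractions did not overlap at confluency but did at subconfluency. The entry did not pass the count filter in A375 and HEK293, and single-value tests were used there too. Mean levels were 457 ± 184 CPM in A375 nuclei and 171 ± 123 CPM in A375 cytoplasm (SD, n = 6 each, two-sided exact permutation p = 0.0173).

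HEK293 held few reads of miR-1248, 7 counts in nuclei and 8 in cytoplasm. Nuclei had 132 and 0 CPM at confluency and 211, 150.4 and 49.7 CPM at subconfluency, against 0 CPM in each confluent and 0, 76.2 and 100.3 CPM in the subconfluent cytoplasmic libraries. The fractions overlapped (two-sided exact permutation p = 0.0779, n = 5 and 6), so a difference was not detectable at this depth. The pooled ratio of nucleus to cytoplasm was 10.0 in SHSY5Y (95% counting interval 5.96 to 18.1), 3.04 in A375 (1.77 to 5.38) and 2.47 in HEK293 (0.762 to 7.79). These intervals cover counting error only. In all, 6 such exact tests were run over the members and lines, and their p-values are unadjusted. Where an entry reached the minimum in 1 fraction only, the same counts chose it for the test, so its p-value is a description.

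**Figure D3:**
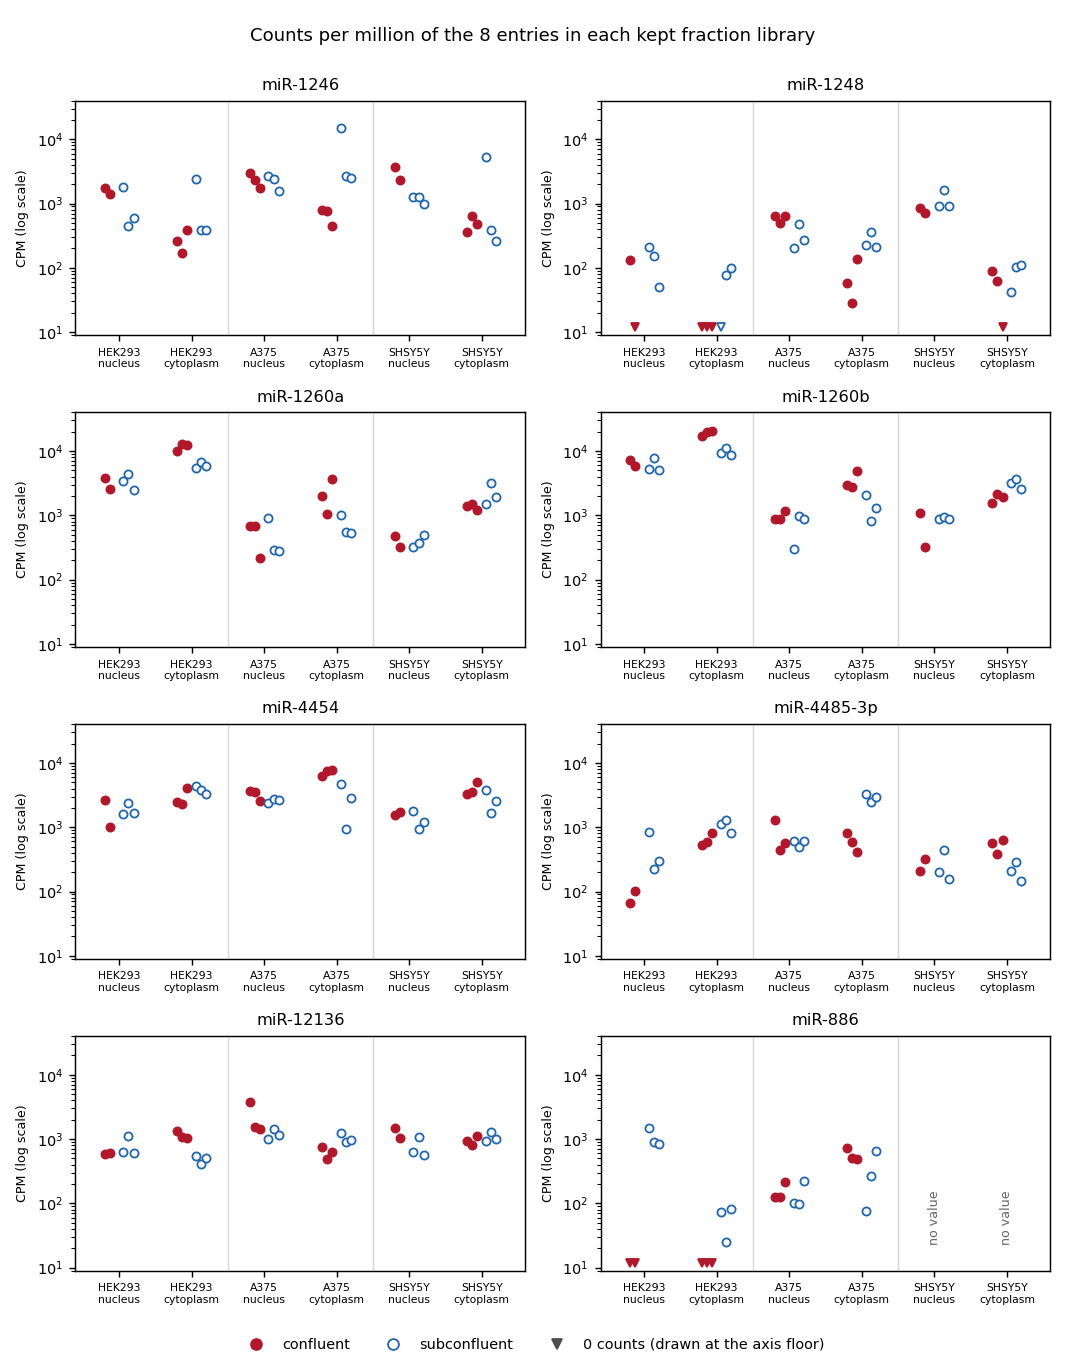
CPM of the 8 entries in each fraction library on log axes, 1 panel per entry, with nucleus left of cytoplasm in each line, filled red for confluent and open blue for subconfluent cells, and triangles for 0 counts. miR-1248 lies between 716 and 1646 CPM in SHSY5Y nuclei, above the 0 to 111 CPM of SHSY5Y cytoplasm.

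miR-1260a and miR-1260b, the leucine tRNA entries, were lower in nuclei than in cytoplasm in all 3 lines. In HEK293, miR-1260b had 7332 and 5878 CPM in confluent and 5272, 7897 and 5019 CPM in subconfluent nuclei, against 17246, 19972 and 20435 CPM in confluent and 9412, 11354 and 8649 CPM in subconfluent cytoplasm. Every nuclear library lay below every cytoplasmic one, and the group means were 6280 ± 1274 CPM in nuclei (SD, n = 5) and 14511 ± 5343 CPM in cytoplasm (SD, n = 6). The log2 difference of miR-1260b was -1.11 in HEK293 (SE 0.183, edgeR adjusted p = 5.02e-05), -1.37 in A375 (SE 0.331, edgeR adjusted p = 0.00441) and -1.55 in SHSY5Y (SE 0.255, edgeR adjusted p = 2.49e-06). miR-1260a had differences of -1.36 (SE 0.204, edgeR adjusted p = 1.84e-05), -1.28 (SE 0.402, edgeR adjusted p = 0.0225) and -2.09 (SE 0.284, edgeR adjusted p = 8.36e-08) in the same lines. These calls held when any 1 library was left out, except that of miR-1260a in A375, which was lost in 4 of 12 such fits (-1.64 to -1.02). It was also lost with DESeq2 (-1.18, DESeq2 adjusted p = 0.0516), with TMM factors from entries detected in the IP (-1.25, edgeR adjusted p = 0.0515) and with the exchanged names (-0.97, edgeR adjusted p = 0.0636). With the exchanged group names, the SHSY5Y differences would turn to 0.35 for miR-1260a and 0.48 for miR-1260b, and those of miR-1260b in HEK293 and A375 would be -0.55 and -0.88.

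Confluency went with higher cytoplasmic levels of both leucine tRNA entries in HEK293 and A375 and with lower ones in SHSY5Y. miR-1260a had 10179, 13031 and 12578 CPM in confluent HEK293 cytoplasm, against 5536, 6883 and 5899.6 CPM in subconfluent cytoplasm. In A375 cytoplasm it had 1986, 1052 and 3737 CPM at confluency, against 998, 542 and 537 CPM at subconfluency. In SHSY5Y cytoplasm it had 1419, 1484 and 1211 CPM at confluency, against 1511, 3201 and 1901 CPM at subconfluency. Confluent libraries lay above all subconfluent ones in HEK293 and A375 and below all of them in SHSY5Y, where the lowest subconfluent and the highest confluent library were close. The log2 difference, confluent over subconfluent, was 0.96 in HEK293 (SE 0.247, edgeR adjusted p = 0.00447), 1.72 in A375 (SE 0.512, edgeR adjusted p = 0.0113) and -0.69 in SHSY5Y (SE 0.299, edgeR adjusted p = 0.0472). For miR-1260b the differences were 0.97 in HEK293 (edgeR adjusted p = 0.00229), 1.37 in A375 (edgeR adjusted p = 0.0171) and -0.72 in SHSY5Y (edgeR adjusted p = 0.0326). Without the first subconfluent cytoplasmic library the HEK293 differences were 0.77 (edgeR adjusted p = 0.0825) for miR-1260a and 0.81 (edgeR adjusted p = 0.0527) for miR-1260b. Both calls were lost as well without the third such library (0.80 and 0.75). In A375 both calls were lost without the second or the third subconfluent or the third confluent cytoplasmic library (1.17 to 1.60 for miR-1260a and 1.09 to 1.30 for miR-1260b), and in SHSY5Y that of miR-1260a was lost in 5 of 11 fits that left out 1 library and that of miR-1260b in 3 (-0.87 to -0.47 and -0.93 to -0.58 over all fits). The SHSY5Y calls of both entries were lost with DESeq2 (-0.59 and -0.63, DESeq2 adjusted p = 0.157 and 0.0588), with TMM factors from entries detected in the IP (-0.15 and -0.19, edgeR adjusted p = 0.683 and 0.588) and without a filter (-0.77 and -0.82, edgeR adjusted p = 0.287 and 0.179). They would turn with the exchanged names to 1.75 for miR-1260a (edgeR adjusted p = 0.00219) and 1.31 for miR-1260b (edgeR adjusted p = 0.00784). In nuclei, confluency gave neither entry a call in any line. There, 24.9% of all entries passed in A375 and 39.9% in SHSY5Y, with 0 members called by edgeR or DESeq2 in either line and 1 at an unadjusted p under 0.05 in each. In HEK293, 1.16% passed, and the 1 member among them was miR-886, which reached 10 counts in subconfluent nuclei only, so nothing is read from that call.

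The balance between both leucine tRNA entries was not the same in the IP as in the fractions. The pooled count ratio of miR-1260b to miR-1260a was 6.07 in the IP (4.77 to 7.85 by library), against 1.63 in HEK293 fractions (1.47 to 2.32 by library), which did not overlap with the IP. It was 1.69 in A375 fractions (0.333 to 5.33) and 1.44 in SHSY5Y fractions (1 to 2.75). These ratios are given as a description without a test. Across the 34 fraction libraries the entries had a Pearson r of 0.93 of log2 CPM, and each was the nearest entry of the other among 460 candidates.

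**Figure D4:**
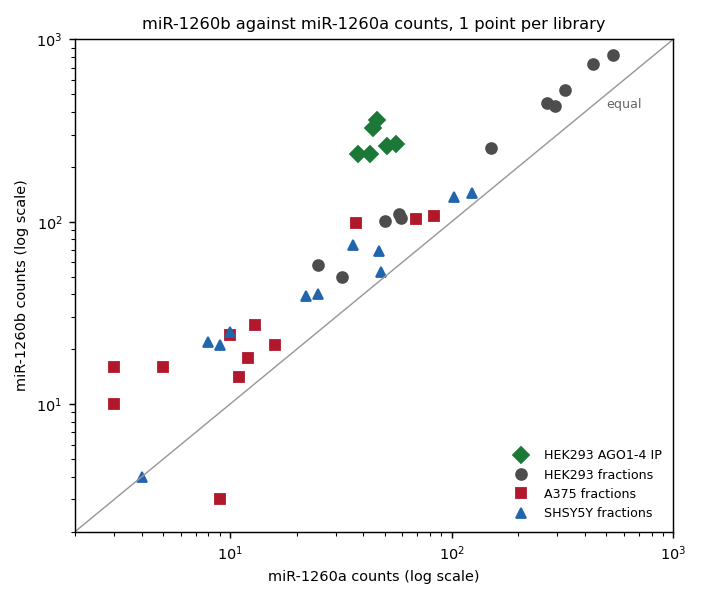
Counts of miR-1260b (y axis) against miR-1260a (x axis) in each library, on log axes, with the line of equal counts. The IP libraries lie farther above the line than the HEK293 fraction libraries, at ratios of 4.77 to 7.85.

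miR-4454, the histidine tRNA entry, was lower in nuclei than in cytoplasm in SHSY5Y and HEK293. In SHSY5Y it had 1571 and 1751 CPM in confluent and 1793, 935 and 1205 CPM in subconfluent nuclei, against 3312, 3474 and 5039 CPM in confluent and 3819, 1652 and 2548 CPM in subconfluent cytoplasm. The fractions did not overlap at confluency but did at subconfluency, where the lowest cytoplasmic library lay below the highest nuclear one. The log2 difference was -1.13 in SHSY5Y (SE 0.243, edgeR adjusted p = 1.2e-04) and -0.83 in HEK293 (SE 0.257, edgeR adjusted p = 0.0111). The HEK293 call was lost without the third confluent cytoplasmic or the second confluent nuclear library, at -0.59 in either fit. In A375 the difference was -0.62 (SE 0.295, edgeR adjusted p = 0.133), with nuclear levels of 2411 to 3651 CPM against cytoplasmic levels of 949 to 7698 CPM. Without its second subconfluent cytoplasmic library, the lowest, it was -0.83 (edgeR adjusted p = 0.0244).

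In fractions, miR-4454 was called between confluencies in A375 cytoplasm alone. It had 6245, 7536 and 7698 CPM in confluent cytoplasm, against 4759, 949 and 2844 CPM in subconfluent cytoplasm, without overlap and with a log2 difference of 1.35 (SE 0.412, edgeR adjusted p = 0.0128). The call was lost without the second (0.98) or the third (1.34) subconfluent cytoplasmic library. SHSY5Y cytoplasm went the same way without a call (0.57, edgeR adjusted p = 0.0945). It was called with TMM factors from entries detected in the IP (1.06, edgeR adjusted p = 0.00482) and without the first subconfluent cytoplasmic library of SHSY5Y (0.89, edgeR adjusted p = 0.0129). With the exchanged group names the HEK293 difference of nucleus over cytoplasm would be 0.19, and that of A375 -0.83 (edgeR adjusted p = 0.028). In SHSY5Y no member, miR-4454 included, would then be called between fractions.

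miR-4485-3p, the 16S ribosomal RNA entry, had lower mean levels in nuclei than in cytoplasm of HEK293 and A375. In HEK293 it had 66.1 and 101 CPM in confluent and 843, 226 and 298 CPM in subconfluent nuclei, against 538, 582 and 813 CPM in confluent and 1107, 1295 and 823 CPM in subconfluent cytoplasm. The first subconfluent nuclear library was the highest nuclear one and lay among the cytoplasmic ones. Means were 307 ± 314 CPM in HEK293 nuclei (SD, n = 5) and 859.8 ± 295 CPM in HEK293 cytoplasm (SD, n = 6, two-sided exact permutation p = 0.0281). No HEK293 nuclear library reached 10 counts of it, so the entry passed the filter through cytoplasm and no fitted value is given. In A375 it had 1274, 434 and 575 CPM in confluent and 603, 485 and 605 CPM in subconfluent nuclei, against 806, 597 and 405 CPM in confluent and 3301, 2439.9 and 2951 CPM in subconfluent cytoplasm. The A375 fractions overlapped at confluency and did not at subconfluency, and of both only the subconfluent difference of -2.33 (SE 0.476, edgeR adjusted p = 5.69e-04) was called. The difference between both was 2.69 on the log2 scale (SE 0.661, edgeR adjusted p = 0.00452). Over both confluencies the A375 difference was -0.99 (SE 0.33, edgeR adjusted p = 0.0308), a call lost in 8 of the 12 fits that left out 1 library (-1.30 to -0.80). It was also lost with DESeq2 (-0.87, DESeq2 adjusted p = 0.0649), with TMM factors from entries detected in the IP (-0.97, edgeR adjusted p = 0.0650) and without a filter (-1.05, edgeR adjusted p = 0.131).

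SHSY5Y showed no call for miR-4485-3p between fractions, with a log2 difference of -0.36 (SE 0.406, edgeR adjusted p = 0.432). This depended on the scaling. With TMM factors from entries detected in the IP, the entry was called lower in nuclei of SHSY5Y (-1.05, edgeR adjusted p = 0.0210). There, confluent cytoplasm had 562, 379 and 629.8 CPM, against 209.8, 284 and 148 CPM in subconfluent cytoplasm, without overlap (log2 difference 1.29, SE 0.462, edgeR adjusted p = 0.0162). The call was lost in 3 of the 11 fits that left out 1 library, those without the first or the third confluent or the third subconfluent cytoplasmic library (0.95 to 1.22), and without a filter (1.18, edgeR adjusted p = 0.235). Between SHSY5Y and HEK293, 10.4% of all entries differed in nucleus over cytoplasm, and nothing is read from the call of miR-4485-3p there because of its low HEK293 nuclear counts. In A375 cytoplasm confluency went the other way, with a log2 difference of -2.23 (SE 0.433, edgeR adjusted p = 1.67e-04). With the exchanged group names, the difference of nucleus over cytoplasm would turn to 0.88 in A375.

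miR-12136, the mitochondrial serine tRNA entry, was called higher in nuclei than in cytoplasm in A375 alone. It had 3736, 1552 and 1439 CPM in confluent and 1005, 1454 and 1155 CPM in subconfluent A375 nuclei, against 748, 483 and 630.3 CPM in confluent and 1228, 904 and 966 CPM in subconfluent A375 cytoplasm. The fractions did not overlap at confluency, where the log2 difference was 1.87 (SE 0.436, edgeR adjusted p = 0.00539, and 1.27 without the first confluent nuclear library, edgeR adjusted p = 0.0590), and overlapped at subconfluency. Over both confluencies it was 1.05 (SE 0.317, edgeR adjusted p = 0.0193). Leaving out 1 library gave 0.76 to 1.27, and the call was lost without the second confluent cytoplasmic or the first confluent nuclear library and without a filter (0.99, edgeR adjusted p = 0.134). The difference was -0.05 in SHSY5Y (edgeR adjusted p = 0.865) and -0.13 in HEK293 (edgeR adjusted p = 0.717), and with the exchanged group names it would be -0.10 in A375. With TMM factors from entries detected in the IP, miR-12136 was called lower in SHSY5Y nuclei (-0.74, edgeR adjusted p = 0.0140).

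The nuclear difference of miR-12136 was larger in A375 than in the other lines by a test of the difference itself. A375 exceeded HEK293 by 1.24 on the log2 scale (SE 0.423, edgeR adjusted p = 0.0488) and SHSY5Y by 1.23 (SE 0.404, edgeR adjusted p = 0.0184), where 12.5% and 35.3% of all entries passed. The call against HEK293 was lost in 19 of the 23 fits that left out 1 library (0.95 to 1.41 over all), and that against SHSY5Y without the first confluent nuclear library of A375 (0.88) or the second one of SHSY5Y (1.11). Without a filter both were lost (1.35 and 1.11, edgeR adjusted p = 0.252 and 0.238). The call against HEK293 was also lost with DESeq2 (1.15, DESeq2 adjusted p = 0.102) and with the near-empty libraries kept (1.19, edgeR adjusted p = 0.0730). In HEK293, miR-12136 instead moved with confluency in cytoplasm, with 1357, 1068 and 1045 CPM at confluency, against 554, 406 and 502 CPM at subconfluency. These libraries did not overlap (log2 difference 1.25, SE 0.330, edgeR adjusted p = 0.00547), and the call was lost without the second (1.04) or the third (1.15) subconfluent library.

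miR-886, the vault RNA entry, had no value in SHSY5Y. In HEK293 the nuclei had 0 counts in each confluent library and 14, 12 and 17 counts in the subconfluent ones, and the cytoplasm had 0 counts in each confluent library and 2, 1 and 4 counts in the subconfluent ones. The entry was thus seen in HEK293 fractions of subconfluent cells alone, while with the exchanged group names the 2, 1 and 4 counts would belong to confluent nuclei. With the confluent group set to a floor of 3 counts over the group, it was at least 8.07-fold lower in confluent than in subconfluent nuclei and at least 2.09-fold lower in confluent than in subconfluent cytoplasm. The lower 95% counting limits of these folds were smaller, 6.28 and 1.29. In subconfluent HEK293, nuclei exceeded cytoplasm 14.3-fold on pooled counts (95% counting interval 6.36 to 37.6). The entry reached 10 counts in subconfluent nuclei only, so its fitted values and calls in HEK293 are not given. Over both confluencies the means were 645 ± 638 CPM in nuclei (SD, n = 5) and 29.9 ± 37.9 CPM in cytoplasm (SD, n = 6, two-sided exact permutation p = 0.0606).

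In A375, miR-886 had a lower mean level in nuclei than in cytoplasm. It had 127, 124 and 216 CPM in confluent and 100.5, 96.9 and 219.9 CPM in subconfluent A375 nuclei, against 719, 512 and 495 CPM in confluent and 76.8, 271 and 644 CPM in subconfluent A375 cytoplasm. The fractions did not overlap at confluency and overlapped at subconfluency. Means were 147 ± 55.9 CPM in A375 nuclei and 453 ± 240 CPM in A375 cytoplasm (SD, n = 6 each, two-sided exact permutation p = 0.0173). It reached 10 counts in 4 cytoplasmic and in 0 nuclear A375 libraries, so its passage of the filter rested on cytoplasm and no fitted value is given.

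The IP asks which entries are bound to Argonaute proteins. Its input is given as whole lysate in 1 place of the study's text and as the cytoplasmic fraction in another, so both fractions are set beside it. Of 694 entries tested by edgeR, 38.5% were higher and 35.0% lower in the IP than in HEK293 cytoplasm, and 28.7% were higher and 29.0% lower than in nuclei. Among 7 members tested, miR-1260a, miR-1260b and miR-4454 reached 10 counts in libraries of the IP and of both fractions, and all 3 were lower in the IP in both contrasts. The others reached 10 counts in fraction libraries only, so their calls are not counted, and their pooled counts are given instead. IP and fraction libraries were made separately and differ in depth, so library preparation and Argonaute binding cannot be told apart in these contrasts. The log2 difference of IP over cytoplasm was -5.15 for miR-1260b, -7.05 for miR-1260a and -4.68 for miR-4454, and that of IP over nuclei was -3.91, -5.56 and -3.74.

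Other members were almost missing from the IP. miR-1246 had 1 count and miR-12136 had 1 count among the 6122631 counts of the IP, miR-1248 had 2 and miR-4485-3p had 4. On pooled library totals, the cytoplasm exceeded the IP 3700-fold in miR-1246 (95% counting interval 652 to 147285), 5390.0-fold in miR-12136 (956 to 214031), 117-fold in miR-1248 (23.3 to 1127) and 1384-fold in miR-4485-3p (532 to 5131). The intervals are wide because the IP counts are so few. miR-1290, which repeats part of miR-1246, had 0 counts in the IP and 470 in the fractions.

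miR-886 had 45 counts in the IP. The cytoplasm exceeded the IP 4.53-fold in miR-886 (95% counting interval 1.72 to 10.1) and the nuclei 78.5-fold (50.5 to 122) on pooled totals. The joint edgeR fit, in which its confluent fraction groups are at 0, gave no call and the other direction for IP over cytoplasm (log2 difference 1.02, SE 1.55, edgeR adjusted p = 0.587). Confluent IP libraries had 4, 8 and 8 counts of miR-886, against 7, 9 and 9 in subconfluent ones, so that confluent cells, whose fractions had none, were not without it in the deeper IP libraries.

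**Figure D5:**
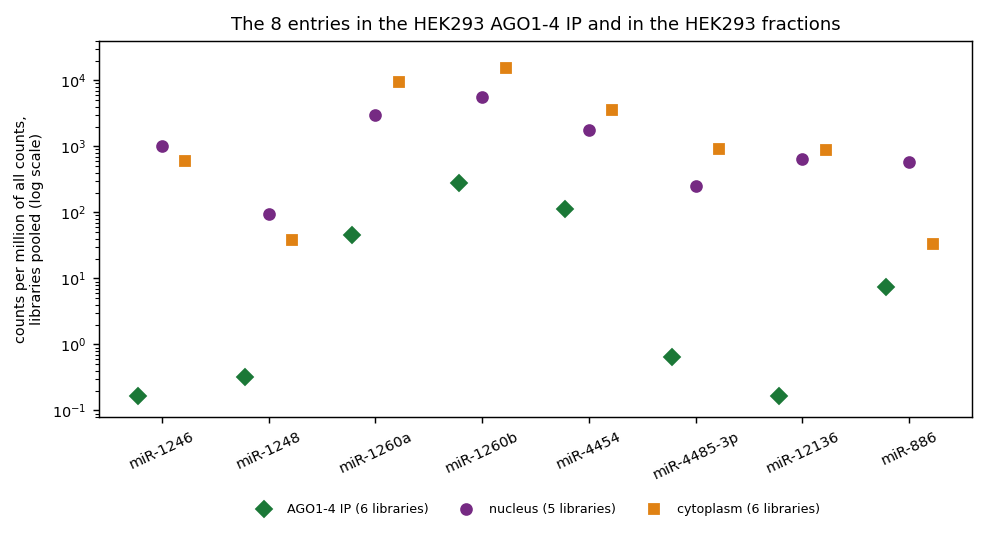
CPM of the pooled libraries (log y axis) of each entry in the HEK293 IP, nucleus and cytoplasm. Each pooled level is lower in the IP than in both fractions, by 4.53-fold for miR-886 and 31.5-fold for miR-4454 against the cytoplasm.

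Within the IP, 3 members passed the count filter and 1 was called between confluent and subconfluent cells, where 35.2% of 537 entries were called. With replicate numbers as a block, 2 members and 56.1% of these entries were called, 145 higher and 156 lower in confluent IP libraries. miR-4454 had 127, 172 and 173 CPM in confluent IP libraries, against 45.0, 49.6 and 67.8 CPM in subconfluent ones, without overlap (log2 difference 1.54, SE 0.199, edgeR adjusted p = 4.43e-04). miR-1260a had 39.5, 37.0 and 37.9 CPM in confluent IP libraries, against 47.2, 60.4 and 54.0 CPM in subconfluent ones. These did not overlap either, and the log2 difference was -0.50 (SE 0.192, edgeR adjusted p = 0.072, and 0.0218 once replicate numbers were blocked). miR-1260b, with 245, 290.2 and 282 CPM against 258, 288 and 276 CPM, had a difference of -0.01 (SE 0.114, edgeR adjusted p = 0.964). Confluent and subconfluent IP libraries carried different index primers. In these differences the part of the index, or of a batch that goes with it, cannot be told apart from that of confluency.

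Between lines, over both fractions and confluencies, 70.1% of all entries differed between A375 and HEK293, 73.2% between SHSY5Y and HEK293 and 61.0% between A375 and SHSY5Y, and line and sequencing pool cannot be told apart. miR-1246 stood in the order A375, SHSY5Y, HEK293, with log2 differences of 0.79 for A375 over SHSY5Y (edgeR adjusted p = 0.0359) and 1.13 for SHSY5Y over HEK293. Without the first subconfluent cytoplasmic library, these were 0.55 when it was left out in A375 and 0.52 when it was left out in SHSY5Y, and neither was then called. The A375 call was lost in 11 of 23 fits that left out 1 library, and the SHSY5Y call also without the second subconfluent cytoplasmic library of HEK293 (0.79). With library totals neither was called, at 0.70 (edgeR adjusted p = 0.0642) and 0.81 (edgeR adjusted p = 0.0633). The A375 call was also lost with TMM factors from entries detected in the IP (0.75, edgeR adjusted p = 0.0803) and with DESeq2 (0.78, DESeq2 adjusted p = 0.104). The leucine tRNA entries were lower in A375 than in HEK293, with log2 differences of -2.46 for miR-1260a and -2.48 for miR-1260b, and lower in SHSY5Y than in HEK293, with -2.29 and -2.37. Between A375 and SHSY5Y neither was called. miR-4454 was higher in A375 than in SHSY5Y (0.82, edgeR adjusted p = 3.56e-04), and SHSY5Y and HEK293 were not told apart (0.12, edgeR adjusted p = 0.563). miR-4485-3p was likewise higher in A375 than in SHSY5Y (1.78, edgeR adjusted p = 8.61e-08), with no call between SHSY5Y and HEK293 (-0.07, edgeR adjusted p = 0.904).

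The profiles nearest to the other members over the 34 fraction libraries, by Pearson r of log2 CPM among 460 candidates, were let-7b-5p for miR-1248 (0.77), miR-6088 for miR-4454 (0.79), miR-4741 for miR-4485-3p (0.82) and miR-9901 for miR-12136 (0.70). For miR-886, over the 23 libraries of A375 and HEK293, it was miR-12135 (0.63).

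A longer list of 23 miRNA names with known overlap to such RNAs had 15 names in the table, and few had enough reads to test. In nuclei against cytoplasm, miR-10396a-3p and miR-10396b-3p were tested in HEK293 and SHSY5Y and both were lower, where 35.1% and 37.4% of all entries were lower, and in A375 none passed the filter. Both reached 10 counts in cytoplasmic libraries only, so nothing is read from these calls. Against cytoplasm, 6 of the list were tested in the IP, with 1 higher and 3 lower, where 38.5% of all entries were higher and 35.0% lower. Against nuclei 1 was higher and 2 were lower, where 28.7% were higher and 29.0% lower. The higher one was miR-664a-3p in both contrasts, whose hairpin overlaps a small nucleolar RNA, at 536 ± 122 CPM in the IP (SD, n = 6) and 132 ± 77.0 CPM in cytoplasm (SD, n = 6), each scaled within its own fit. It reached 10 counts in IP libraries only, so its calls are a description. The 3 lower ones against cytoplasm were miR-6516-5p, miR-10396a-3p and miR-10396b-3p, and miR-10396a-3p and miR-10396b-3p had passed through cytoplasm alone.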

How the data were processed

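Small RNA libraries were analysed from whole-number counts per mature miRNA entry, which the authors deposited for 42 libraries without normalization. The submitters' notes and the study's methods name adapter trimming with cutadapt, mapping to human miRNA sequences with Bowtie2, counting with bedtools and build hg38, with the miRNA release not given in the sources used here. All columns were mapped to samples by their names. The 2 near-empty libraries were left out, and 40 were kept.

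CPM are TMM-scaled within the fit of each line or of the IP. An entry was tested where 3 or more libraries of the fit held a minimum of 10 counts of it, by edgeR 4.0.16 (quasi-likelihood, R 4.3.3), with Benjamini-Hochberg adjustment over all entries of the fit and 0.05 as threshold. The fits of each line held its 4 groups. The SE is the log2 difference divided by the root of the F statistic. Members below the filter, or at its minimum in libraries of 1 fraction only, were compared between fractions by exact permutation tests of CPM, and pooled ratios have exact conditional 95% intervals. Sequences and coordinates came from RefSeq and GENCODE. Counts of genes that match a member are lower bounds, since matches on 1 chromosome were left out.

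The 8 members and the longer list were chosen with earlier results of these data known. Named beside them were listed entries past the threshold and, for each member, entries with the highest Pearson r of log2 CPM (prior count 2). Deviations of same-numbered IP libraries, which shared an adapter, correlated in all 3 pairs (r 0.34 to 0.58 over 537 entries). The main IP fit did not use this pairing, and a fit with replicate numbers as a block is given beside it. Those of fraction libraries did not pair. Alternatives were library totals, TMM from entries detected in the IP, DESeq2 1.42.0, no filter, both miR-1260 entries summed, the near-empty libraries kept, exchanged group names, a replicate block and each library left out. After seeing the data, fits without the first subconfluent cytoplasmic libraries, tests of differences between lines and the exact tests of members at the minimum in 1 fraction only were added.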

Additional observations from a re-analysis of the deposited data

Results flagged for a closer look

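The difference of nucleus over cytoplasm changed with confluency for miR-1246, by 3.37 on the log2 scale in A375 (SE 0.751, edgeR adjusted p = 0.00213) and by 3.26 in SHSY5Y (SE 0.855, edgeR adjusted p = 0.0351). It changed by 2.69 for miR-4485-3p in A375 (SE 0.661, edgeR adjusted p = 0.00452). Between lines, the same difference of miR-12136 was larger in A375 than in HEK293 by 1.24 (SE 0.423, edgeR adjusted p = 0.0488) and larger in A375 than in SHSY5Y by 1.23 (SE 0.404, edgeR adjusted p = 0.0184). Each of the 5 was a test of the difference itself, and their causes were not tested. The SHSY5Y call of miR-1246, at 0.76 without the first subconfluent cytoplasmic library, and both calls of miR-12136 were lost under alternatives given above.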

How the results depend on the processing

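Counts over all entries moved with the processing, so the moves of members below are not read as particular to them. For SHSY5Y nuclei between confluencies, library totals called 106 entries higher and 45 lower of 348, in place of 62 and 77. TMM from entries detected in the IP called 104 and 41 there. For A375 nucleus over cytoplasm, DESeq2 called 29 higher and 23 lower of 265, in place of 20 and 37. Counts of members past the threshold moved as follows. With library totals, confluent over subconfluent SHSY5Y nuclei gave 2 in place of 0. With TMM from entries detected in the IP, A375 nucleus over cytoplasm gave 3 in place of 5 and its subconfluent part 1 in place of 2, A375 and SHSY5Y nuclei between confluencies gave 1 each in place of 0, SHSY5Y cytoplasm 2 in place of 4 and the SHSY5Y interaction 0 in place of 1. DESeq2 gave 1 in place of 0 for the HEK293 interaction, 2 and 1 in place of 5 and 2 for A375 nucleus over cytoplasm and its subconfluent part, 1 in place of 4 for SHSY5Y cytoplasm between confluencies and 0 in place of 1 for the SHSY5Y interaction. Without a filter the HEK293 interaction gave 1, A375 nucleus over cytoplasm 2 and SHSY5Y cytoplasm between confluencies 1. With both miR-1260 entries summed, confluent A375 nucleus over cytoplasm gave 3 in place of 5. Both entries had been called there, so their merging alone lowers this count. With the near-empty libraries kept, SHSY5Y nuclei between confluencies gave 1. With the replicate block the SHSY5Y interaction gave 0 in place of 1 and the IP 2 in place of 1. Fraction libraries of one number did not deviate together (r -0.23 to 0.26), and the block moved no other count by over 1.5 times. Without the first subconfluent cytoplasmic libraries, HEK293 cytoplasm and nuclei between confluencies gave 1 and 0 in place of 5 and 1, subconfluent A375 1 in place of 2, SHSY5Y nuclei between confluencies 1 in place of 0 and the SHSY5Y interaction 0 in place of 1. miR-1246 in SHSY5Y then turned to 1.86 for subconfluent nucleus over cytoplasm and to 0.62 for cytoplasm between confluencies, and leaving out 1 library gave -1.41 to 1.86 and -2.52 to 0.62.

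With the exchanged group names the member counts were 3, 5 and 1 for HEK293 nucleus over cytoplasm, nuclei between confluencies and subconfluent nucleus over cytoplasm, 0 and 2 for subconfluent A375 and its nuclei between confluencies, and 0, 0 and 4 for SHSY5Y nucleus over cytoplasm, its subconfluent part and its nuclei between confluencies. Counts over all entries moved too, so these moves are not read as particular to the members. Of 345 HEK293 entries, 120 were higher and 67 lower in confluent nuclei, in place of 0 and 4. For subconfluent nucleus over cytoplasm there, 4 were higher and 0 lower, in place of 67 and 120. SHSY5Y nucleus over cytoplasm had 98 higher and 105 lower of 348, in place of 118 and 130. Nucleus over cytoplasm turned to 0.19 for miR-4454 in HEK293 and to 0.88 for miR-4485-3p and -0.10 for miR-12136 in A375. In SHSY5Y it turned to 0.35 for miR-1260a and 0.48 for miR-1260b. Fitted values of miR-4485-3p that involve HEK293 fractions are left out, since it passed the filter there through cytoplasm. In subconfluent cells it turned to 0.0752 for miR-1260a and 2.30 for miR-4485-3p in HEK293 and to 0.00734 and 0.24 for miR-1260a and miR-1260b in SHSY5Y, and in confluent cells to 0.75 for miR-4485-3p in HEK293 and to 0.69 and 0.72 for both miR-1260 entries in SHSY5Y. Between confluencies, miR-4485-3p turned to 2.91 in cytoplasm and 1.36 in nuclei of HEK293, miR-1260a to 0.85 in HEK293 nuclei, and miR-1260a and miR-1260b to 1.75 and 1.31 in cytoplasm and 2.43 and 1.79 in nuclei of SHSY5Y. The difference between SHSY5Y and HEK293 turned to 1.00, 1.23 and -1.97 for miR-1260a, miR-1260b and miR-4485-3p, and that between A375 and SHSY5Y to -1.43 for miR-1260b and 1.45 for miR-4485-3p. The exchange itself swaps whole groups. The causes of the other changes were not tested.

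Leaving out 1 library gave these ranges of members past the threshold. Shares over all entries in these fits are not given, so the ranges are not read as particular to the members. For nucleus over cytoplasm they were 3 to 5 in HEK293, 2 to 6 in A375 and 4 to 5 in SHSY5Y, for its confluent part 2 to 4 in HEK293 and 2 to 6 in A375, and for its subconfluent part 0 to 5 in HEK293 and 1 to 2 in A375. For cytoplasm between confluencies they were 1 to 4 in HEK293, 2 to 5 in A375 and 0 to 4 in SHSY5Y, for nuclei 0 to 1 in HEK293 and SHSY5Y, for the interaction 0 to 1 in HEK293 and SHSY5Y, and for A375 over SHSY5Y 2 to 3. Scaling shifted the median log2 difference of all entries, nucleus over cytoplasm, by -0.22 in HEK293, -0.10 in A375 and -0.23 in SHSY5Y with library totals and by -0.45, -0.01 and -0.69 with TMM from entries detected in the IP. Fraction libraries held few counts of miR-1248 and miR-886 in HEK293, which limits their ratios.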
